A study of Mus musculus with 18 samples.

Results

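The genes described here are Dbx1, Sfrp2, Fgf7, Tgfa, Nrg1 and Nrg3, 6 of the 38355 genes counted in each library. They were taken by gene symbol from a list of genes of the antihem and ventral pallium that was drawn up with earlier results of these data known, and the rule itself uses no measured value. All 6 symbols were matched to Ensembl identifiers and all 6 passed the filter on low counts. RNA of dissected mouse cortex at E12.5 (embryonic day) was sequenced from C57BL/6 embryos of 4 genotypes. There were 4 wild-type libraries, 5 libraries homozygous for loss of Dmrt3 (Dmrt3-/-), 4 homozygous for loss of Dmrt5 (Dmrt5-/-) and 5 homozygous for both (Dmrt3-/-;Dmrt5-/-, the double knockout). The sources used here do not describe the null alleles or say whether embryos were pooled. Replicates are numbered samples of one genotype, so the p-values measure the spread between those samples.

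The antihem is a strip of progenitors at the lateral edge of the embryonic cortex, on the border between the pallium (the future cortex) and the subpallium (the future striatum and pallidum). It lies opposite the cortical hem, the source of Wnt and Bmp signals at the medial edge. It is known for secreting the Wnt antagonist Sfrp2, the fibroblast growth factor Fgf7 and the ErbB receptor ligands Tgfa, Nrg1 and Nrg3. Dbx1, a homeodomain transcription factor, marks ventral pallial progenitors, which give rise to part of the Cajal-Retzius neurons, the earliest neurons of the cortical marginal zone. Dmrt3 and Dmrt5 are DM-domain transcription factors of cortical progenitors, with levels that are high medially and fall towards the lateral side. In RNA from whole dissected tissue, fewer cells of a type and less RNA per cell cannot be told apart.

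Total counts lay between 19602718 and 33072896 per library. The labels were checked on the deleted genes, in CPM (counts per 1000000 counts of a library, its total scaled by the TMM method). Dmrt3 stood at 56.9 ± 4.10 CPM (SD, n = 4) in wild type and 0.31 ± 0.065 (n = 5) in the Dmrt3 knockout and 0.16 ± 0.18 (n = 5) in the double knockout. Dmrta2, the gene symbol of Dmrt5, stood at 193.5 ± 29.7 CPM (n = 4) in wild type and 10.7 ± 9.64 (n = 4) in the Dmrt5 knockout, where replicate 1 held 25.1 CPM, and 3.55 ± 1.34 (n = 5) in the double knockout. Pallial progenitor markers (9 genes) summed to between 1996 and 3215 CPM in the 18 libraries, and no gene of any marker list was at 0 in all libraries of a genotype. A score of 12 mesenchyme and meninges genes, their mean log2 CPM, ranged from 0.85 to 6.19 in the double knockout and from 5.05 to 6.23 in wild type. Replicate 5 of the double knockout held the lowest score of all 18 libraries, 0.85, and replicate 4 of that genotype the highest of its group, 6.19.

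Promoter sequences are shown for the antihem genes that differed between the double knockout and wild type, Dbx1 and Sfrp2, and for Fgf7, the one among the 5 members found in the promoter table with a match to the core of the published Dmrt binding motif. Each run is the 250 bases before the transcription start in RefSeq, build GRCm38.p6, written 5′ to 3′ on the gene's strand. Capitals mark matches on either strand to ACANTGT (the Dmrt core), CATTGT (a Sox core, which lies inside ACATTGT, a form of the Dmrt core), TAATTA (a homeodomain core), CCAAT and TATAAA. The start of Dbx1 in GENCODE lies within its window, close to the 3′ end.
Dbx1, minus strand, chr7:49636836-49637085: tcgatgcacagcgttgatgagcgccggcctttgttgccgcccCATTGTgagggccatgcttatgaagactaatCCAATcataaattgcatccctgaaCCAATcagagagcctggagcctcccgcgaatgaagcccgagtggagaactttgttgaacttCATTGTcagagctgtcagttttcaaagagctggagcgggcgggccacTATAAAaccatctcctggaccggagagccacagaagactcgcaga
Sfrp2, plus strand, chr3:83766071-83766320: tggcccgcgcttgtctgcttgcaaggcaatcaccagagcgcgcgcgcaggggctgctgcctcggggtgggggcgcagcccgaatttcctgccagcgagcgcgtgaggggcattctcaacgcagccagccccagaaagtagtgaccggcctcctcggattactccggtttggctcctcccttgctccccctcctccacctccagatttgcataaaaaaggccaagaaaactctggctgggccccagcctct
Fgf7, plus strand, chr2:126034408-126034657: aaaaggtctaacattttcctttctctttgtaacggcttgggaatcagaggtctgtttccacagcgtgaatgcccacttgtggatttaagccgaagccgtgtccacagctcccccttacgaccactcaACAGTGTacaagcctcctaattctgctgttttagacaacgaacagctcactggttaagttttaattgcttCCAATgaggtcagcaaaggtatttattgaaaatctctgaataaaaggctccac

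The Dbx1 window held CATTGT at 208 and at 92 bases before the start site, CCAAT at 177 and at 153 bases, and TATAAA at 45 bases. Of 32851 mouse promoters of the same length, CATTGT was found in 10.7%, CCAAT in 33.8% and TATAAA in 12.4%. The Sfrp2 window held none of the motifs searched. The Fgf7 window held ACAGTGT, a form of ACANTGT, 123 bases before the start, and 6.47% of all promoters held such a match. TAATTA, found in 4.84% of promoters, was in no window of the 5 members. The E-box CANNTG, found in 66.2%, was not in the windows of Dbx1, Sfrp2 and Nrg3. These matches describe letters in the window only.

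The antihem genes lay on 6 chromosomes of mm10 in the GENCODE M21 annotation. Dbx1 (ENSMUSG00000030507) spans chr7:49631499-49636849, Sfrp2 (ENSMUSG00000027996) chr3:83766321-83774316, Fgf7 (ENSMUSG00000027208) chr2:126034658-126091185, Tgfa (ENSMUSG00000029999) chr6:86195223-86275719, Nrg1 (ENSMUSG00000062991) chr8:31814551-32884029 and Nrg3 (ENSMUSG00000041014) chr14:38368952-39473088. The library kit does not keep strand, so reads of opposite-strand genes cannot be told apart where exons overlap. Sfrp2 shares 347 exonic bases with Gm26771, which drew 68 counts over all libraries, and Nrg1 shares 482 with Gm26578, which drew 818. Tgfa shares 118 exonic bases with an opposite-strand gene that was not analysed here.

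In wild type, the levels per kilobase of exon spanned a wide range. Sfrp2 was the most abundant of the antihem genes, at 19.5 ± 1.88 CPM per kb (SD, n = 4). Dbx1 followed at 3.67 ± 0.592, then Tgfa at 0.98 ± 0.445, Nrg1 at 0.78 ± 0.115, Nrg3 at 0.52 ± 0.14 and Fgf7 at 0.25 ± 0.13 CPM per kb. Tgfa and Nrg1 did not differ beyond their spread, and Tgfa was below Nrg1 in replicate 2. The ranges of Nrg3 and Fgf7 overlapped across libraries, but Nrg3 was above Fgf7 within each of the 4. Per kilobase, Sfrp2 and Dbx1 stood apart from each other and from the rest. Before division by exon length, the wild-type mean of Dbx1, 7.67 CPM, lay between those of Nrg1, 8.04, and Tgfa, 6.34. Fgf7 rested on 7 to 45 counts per wild-type library, the fewest of the antihem genes in each library.

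Loss of either gene alone gave no call among the antihem genes, and loss of both gave calls in opposite directions for Dbx1 and Sfrp2. The test was edgeR's quasi-likelihood test over 16236 genes with Benjamini-Hochberg adjustment, with 0.05 as the threshold of the adjusted p for a call. In the Dmrt3 knockout against wild type 0 of the 6 genes were called, where 0.0123% of all genes were; 1 of the 6 passed 0.05 unadjusted, and DESeq2 gave 0 calls. In the Dmrt5 knockout against wild type 0 of the 6 were called, where 1.03% of all genes were. Of these 6, 1 passed 0.05 unadjusted, and DESeq2 gave 0 calls. On simulated counts the edgeR test called 8% of 1.5-fold changes in the Dmrt3 knockout comparison and 6% in the Dmrt5 knockout comparison. The lack of a call therefore does not show that a gene was unchanged. In the double knockout against wild type Sfrp2 rose and Dbx1 fell, where 2.42% of all genes rose and 3.81% fell, in all 6.23%. The libraries of the 2 genotypes did not overlap for these 2 genes, as for 5.97% of all genes.

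The double knockout was also set against each single knockout. Against the Dmrt3 knockout Dbx1 fell and Sfrp2 and Nrg1 rose, 3 of 6 where 3.7% of all genes were called, 1.74% higher and 1.96% lower. Against the Dmrt5 knockout Dbx1 fell, 1 of 6 where 0.333% of all genes were called. The Dbx1 libraries did not overlap in either comparison, as for 4.8% of all genes against the Dmrt3 knockout and 1.77% against the Dmrt5 knockout. The interaction, the double knockout's log2 difference from wild type minus the sum of the differences of the single knockouts, was called for Dbx1, 1 of 6 where 0.142% of all genes were called. The median log2 difference of the 6 genes was -0.14 in the Dmrt3 knockout, 0.28 in the Dmrt5 knockout and 0.57 in the double knockout, each against wild type, beside -0.004, -0.021 and 0.006 over all genes tested. These comparisons share the wild-type or the double knockout libraries.

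**Figure D1:**
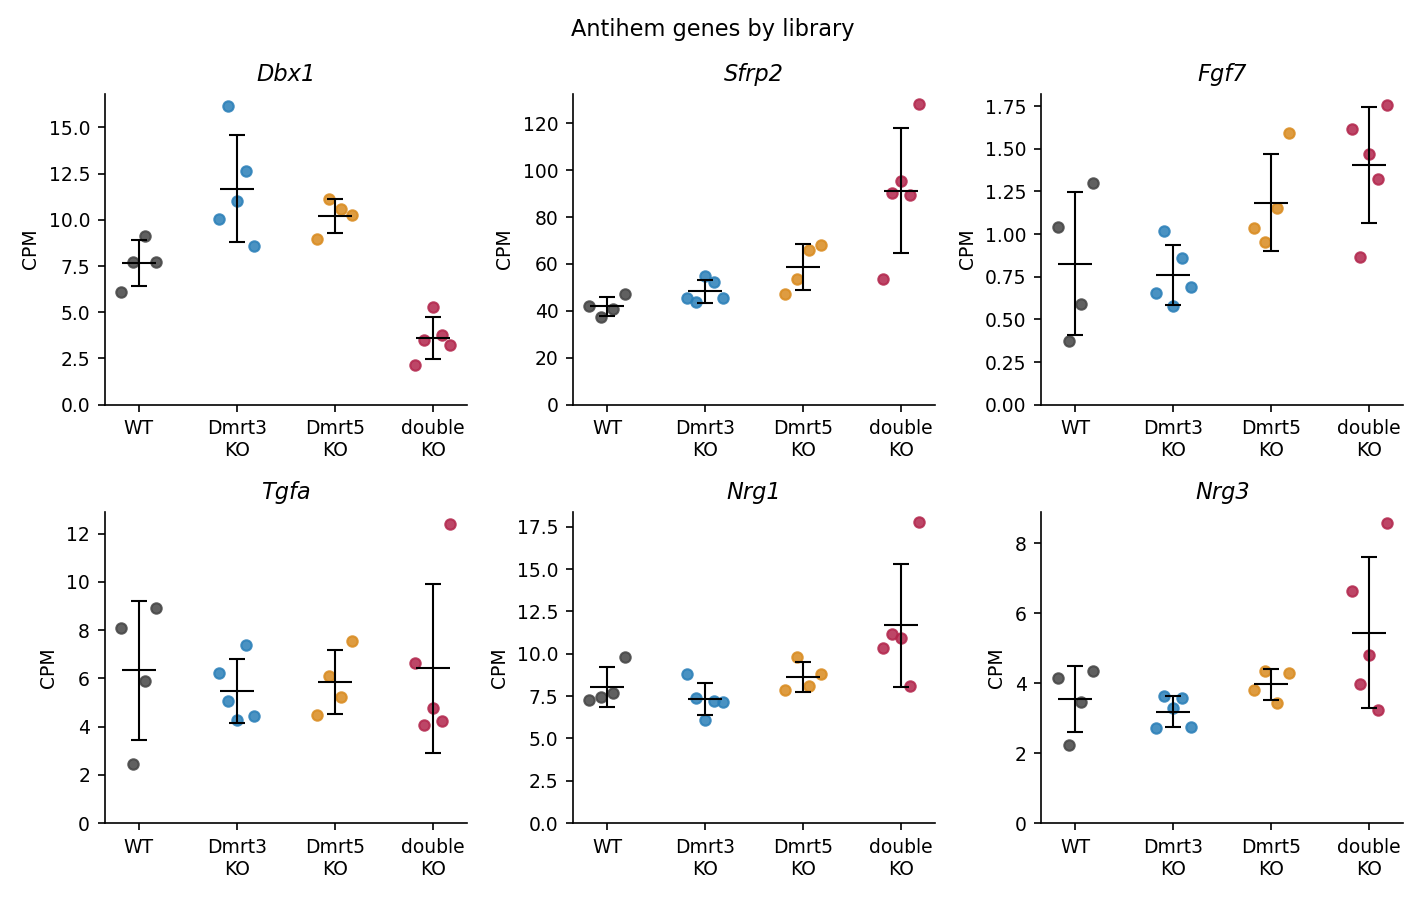
Each point is 1 library and gives the level of an antihem gene in CPM on a linear axis from 0, with the mean and SD of each genotype as bars (wild type n = 4, Dmrt3 KO n = 5, Dmrt5 KO n = 4, double KO n = 5). The 5 double KO libraries lie below all others for Dbx1, between 2.15 and 5.29 CPM, and above all wild-type libraries for Sfrp2, between 53.5 and 128.1 CPM, while the other genes overlap between genotypes.

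Dbx1, the transcription factor of ventral pallial progenitors, was lower in the double knockout than in every other genotype. Its level was 6.11, 7.74, 9.14 and 7.70 CPM in the wild-type libraries. The Dmrt3 knockout libraries held 10.04, 16.1, 10.99, 12.6 and 8.58 CPM, and those of the Dmrt5 knockout 8.95, 11.1, 10.6 and 10.3 CPM. Of these 9 libraries, 7 lay above all wild-type libraries, 4 of the Dmrt3 knockout and 3 of the Dmrt5 knockout. The double knockout libraries held 2.15, 3.52, 5.29, 3.79 and 3.24 CPM, all below the lowest library of each other genotype.

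The mean level of Dbx1 was 7.67 ± 1.24 CPM (SD, n = 4) in wild type, 11.7 ± 2.89 (n = 5) in the Dmrt3 knockout, 10.2 ± 0.92 (n = 4) in the Dmrt5 knockout and 3.60 ± 1.13 (n = 5) in the double knockout. In the double knockout Dbx1 fell 2.13-fold against wild type (log2 difference -1.09, SE 0.22, adjusted p = 0.00534 in edgeR). Against the Dmrt3 knockout it fell 3.24-fold (-1.70, SE 0.21, adjusted p = 9.38e-05 in edgeR), and against the Dmrt5 knockout 2.84-fold (-1.50, SE 0.22, adjusted p = 0.00238 in edgeR). These 3 calls were kept whichever library of the genotypes compared was left out. Fitted on the 2 genotypes compared alone, the log2 differences were -1.08 and -1.50 and the edgeR adjusted p was 0.0701 against wild type and 0.0568 against the Dmrt5 knockout.

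In the single knockouts the log2 difference of Dbx1 from wild type was 0.61 (SE 0.22, adjusted p = 0.616 in edgeR, unadjusted 0.0137) for Dmrt3 and 0.41 (SE 0.23, adjusted p = 0.534) for Dmrt5, so neither passed the test. Dbx1 was called for the interaction and the other 5 genes were not, in edgeR and in DESeq2. The interaction of Dbx1 was -2.11 on the log2 scale (SE 0.31, adjusted p = 0.00554 in edgeR), and it was called in all 18 fits that left out a library. Over all genes, the interaction was called lower for 23 genes and higher for 0, while the unadjusted p was under 0.05 for 1497. In DESeq2 the interaction was called higher for 66 genes and lower for 61.

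Sfrp2, a secreted frizzled-related protein that binds Wnt ligands, was higher in the double knockout. The wild-type libraries held 42.1, 37.4, 40.9 and 47.2 CPM, and those of the Dmrt3 knockout 45.4, 43.9, 54.8, 52.3 and 45.6 CPM. The Dmrt5 knockout libraries held 47.1, 53.6, 65.8 and 68.0 CPM. The double knockout libraries held 53.5, 90.1, 95.4, 89.2 and 128.1 CPM, so that replicate 1 lay within the range of both single knockouts and replicate 5 stood above the rest. The genotype means ordered as wild type at 41.9 ± 4.05 CPM (SD, n = 4), the Dmrt3 knockout at 48.4 ± 4.84 (n = 5), the Dmrt5 knockout at 58.6 ± 9.94 (n = 4) and the double knockout at 91.3 ± 26.5 (n = 5).

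Sfrp2 rose 2.18-fold in the double knockout against wild type (log2 difference 1.12, SE 0.19, adjusted p = 0.00111 in edgeR). It rose 1.89-fold against the Dmrt3 knockout (0.92, SE 0.17, adjusted p = 0.00398 in edgeR). Against the Dmrt5 knockout the log2 difference was 0.64 (SE 0.18, adjusted p = 0.275 in edgeR), and without replicate 1 of the double knockout it was 0.78 with an adjusted p of 0.0254. In the single knockouts the log2 difference from wild type was 0.21 (SE 0.18, adjusted p = 0.672) for Dmrt3 and 0.48 (SE 0.19, adjusted p = 0.324 in edgeR, unadjusted 0.0214) for Dmrt5. The interaction of Sfrp2 was 0.43 (SE 0.26, adjusted p = 0.575). Of the neighbours in this order, neither wild type and the Dmrt3 knockout nor the Dmrt5 and the double knockout passed the test, and the 2 single knockouts were not set against each other.

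Replicate 5 of the double knockout, highest for Sfrp2, also had the lowest mesenchyme score. With the mesenchyme score as a covariate the log2 difference of Sfrp2 against wild type was 0.95 with an edgeR adjusted p of 0.0237. Against the Dmrt3 knockout it was 0.75 with an adjusted p of 0.0777, which ends that call. Without replicate 5, the edgeR adjusted p of Sfrp2 against wild type was 0.00182.

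Fgf7, a growth factor that acts through the IIIb form of Fgfr2, was the scarcest member. The wild-type libraries held 1.04, 0.37, 0.59 and 1.30 CPM, the Dmrt3 knockout 0.66, 1.02, 0.58, 0.86 and 0.69, and the Dmrt5 knockout 1.04, 0.95, 1.16 and 1.59 CPM. The double knockout libraries held 1.61, 0.87, 1.47, 1.32 and 1.76 CPM, 4 of them above every wild-type library. The means were 0.83 ± 0.42 CPM (SD, n = 4), 0.76 ± 0.18 (n = 5), 1.19 ± 0.28 (n = 4) and 1.41 ± 0.34 (n = 5) in that order of genotypes. Fgf7 passed no test, with a log2 difference of 0.73 (SE 0.31, adjusted p = 0.223 in edgeR) between the double knockout and wild type and 0.88 (SE 0.30, adjusted p = 0.129) between the double and the Dmrt3 knockout. These values rested on 7 to 53 counts per library.

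Tgfa, a ligand of the Egf receptor, varied more between libraries of one genotype than between genotypes. The wild-type libraries held 8.09, 2.45, 5.88 and 8.91 CPM and those of the double knockout 6.65, 4.06, 4.76, 4.22 and 12.4 CPM. The single knockout libraries lay between these extremes, from 4.26 to 7.41 CPM in the Dmrt3 knockout and from 4.50 to 7.56 CPM in the Dmrt5 knockout. The means were 6.34 ± 2.89 CPM (SD, n = 4) in wild type, 5.48 ± 1.32 (n = 5) in the Dmrt3 knockout, 5.85 ± 1.32 (n = 4) in the Dmrt5 knockout and 6.42 ± 3.50 (n = 5) in the double knockout. The log2 difference of the double knockout from wild type was 0.01 (SE 0.36, adjusted p = 0.994 in edgeR), and -0.37 without replicate 5 of the double knockout.

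Nrg1, a neuregulin that binds Erbb3 and Erbb4, was higher in the double knockout than in the Dmrt3 knockout by a margin close to the threshold. The wild-type libraries held 7.29, 7.42, 7.66 and 9.81 CPM, the Dmrt3 knockout 8.81, 7.38, 6.12, 7.20 and 7.16, and the Dmrt5 knockout 7.86, 9.83, 8.09 and 8.82 CPM. The double knockout libraries held 10.4, 11.2, 10.9, 8.09 and 17.8 CPM. Replicate 4 of the double knockout lay inside the range of each other genotype and the other 4 lay above all of them. The means were 8.04 ± 1.19 CPM (SD, n = 4), 7.33 ± 0.96 (n = 5), 8.65 ± 0.88 (n = 4) and 11.7 ± 3.63 (n = 5) in that order of genotypes.

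Nrg1 rose 1.59-fold in the double against the Dmrt3 knockout (log2 difference 0.67, SE 0.18, adjusted p = 0.0449 in edgeR). That call was lost in 9 of the 10 fits that left out 1 of these libraries, with adjusted p up to 0.118, and was kept without replicate 4 of the double knockout (0.78, adjusted p = 0.00903). It was also lost with no filter on low counts (adjusted p = 0.0601), with only these 2 genotypes in the fit (0.149), with a replicate block (0.0657), when the fit included the transcript length slope (0.0853) and when it included the mesenchyme score (log2 difference 0.32, adjusted p = 0.847). Against wild type the log2 difference was 0.54 (SE 0.19, adjusted p = 0.122 in edgeR). It was 0.64 with an adjusted p of 0.027 without replicate 4 of the double knockout, and 0.33 with an adjusted p of 0.239 without replicate 5. Against the Dmrt5 knockout the log2 difference was 0.43 (SE 0.19, adjusted p = 0.956), and the interaction was 0.57 (SE 0.27, adjusted p = 0.54).

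Nrg3, a neuregulin that binds Erbb4, held 4.16, 2.24, 3.47 and 4.34 CPM in the wild-type libraries. The double knockout libraries held 6.65, 3.97, 4.80, 3.24 and 8.58 CPM, of which 3 lay above every wild-type library. The single knockout libraries spanned 2.72 to 3.62 CPM for Dmrt3 and 3.43 to 4.35 CPM for Dmrt5. The means were 3.55 ± 0.95 CPM (SD, n = 4) in wild type, 3.19 ± 0.43 (n = 5) in the Dmrt3 knockout, 3.97 ± 0.44 (n = 4) in the Dmrt5 knockout and 5.45 ± 2.16 (n = 5) in the double knockout. The log2 difference of the double knockout was 0.61 (SE 0.26, adjusted p = 0.212 in edgeR) from wild type and 0.77 (SE 0.24, adjusted p = 0.0983) from the Dmrt3 knockout. The latter was called by DESeq2 (adjusted p = 0.0337) and by edgeR without replicate 4 of the double knockout (0.91, adjusted p = 0.0186).

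**Figure D2:**
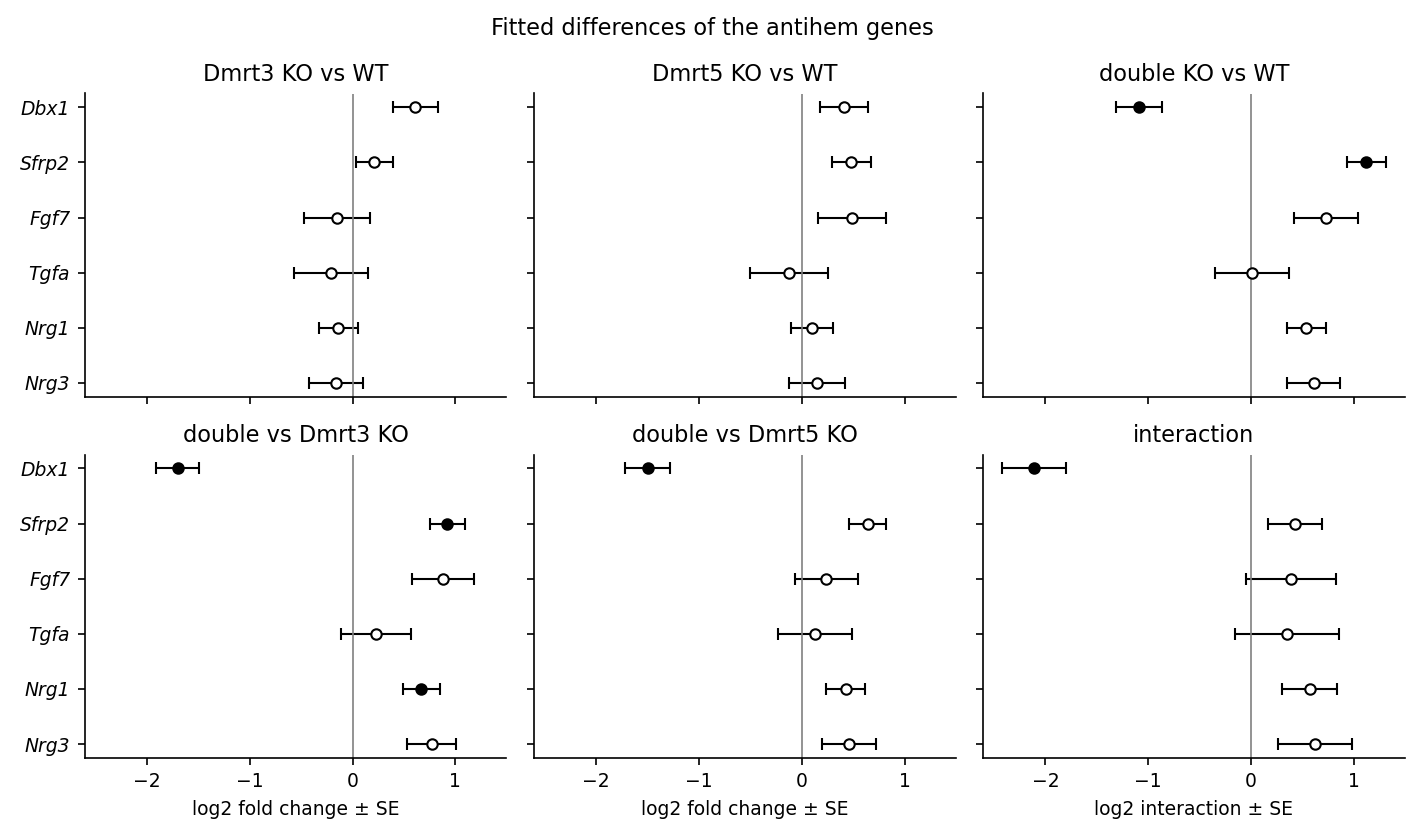
Log2 differences of the antihem genes with their SE in 6 panels, 1 for each comparison, with filled points where the edgeR adjusted p was under 0.05. Dbx1 lies at -1.09, -1.70 and -1.50 in the double KO panels and at -2.11 in the interaction panel, on the opposite side of 0 from Sfrp2 at 1.12 against wild type.

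The libraries also differed in the mesenchyme score and in a transcript length slope. The latter is the slope, over tested genes, of a library's log2 CPM relative to the mean of all libraries on log2 exon length, and is positive where longer transcripts drew more reads. It ranged from -0.196 to 0.244 in wild type, -0.118 to 0.051 in the Dmrt3 knockout, -0.085 to 0.004 in the Dmrt5 knockout and -0.041 to 0.326 in the double knockout. Replicate 5 of the double knockout had the lowest mesenchyme score of the 18 libraries, the highest slope, 0.326, and the highest Sfrp2, Fgf7, Tgfa, Nrg1 and Nrg3 levels of its genotype, but not the highest Dbx1. Replicate 2 of wild type had the lowest slope, -0.196, and the lowest Sfrp2, Fgf7, Tgfa and Nrg3 levels of its genotype, with a mesenchyme score of 5.58, inside the wild-type range. Replicate 1 of the double knockout, lowest in Dbx1, was at neither extreme. The mesenchyme score partly followed genotype. Double knockout replicates 1, 2, 3 and 5 scored 4.13, 2.88, 2.88 and 0.85. These lay below every library of the other genotypes, of which the lowest scored 4.28, and only replicate 4 did not. Fits with the score as a covariate therefore cannot separate it from the loss of both genes. With the slope as a covariate, a setting added after the data were seen, Sfrp2 was also called in the Dmrt5 knockout against wild type (0.56, edgeR adjusted p = 0.0431). The part of these 2 properties in the levels of Tgfa, Nrg1, Nrg3 and Fgf7 was not tested beyond these fits.

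**Figure D3:**
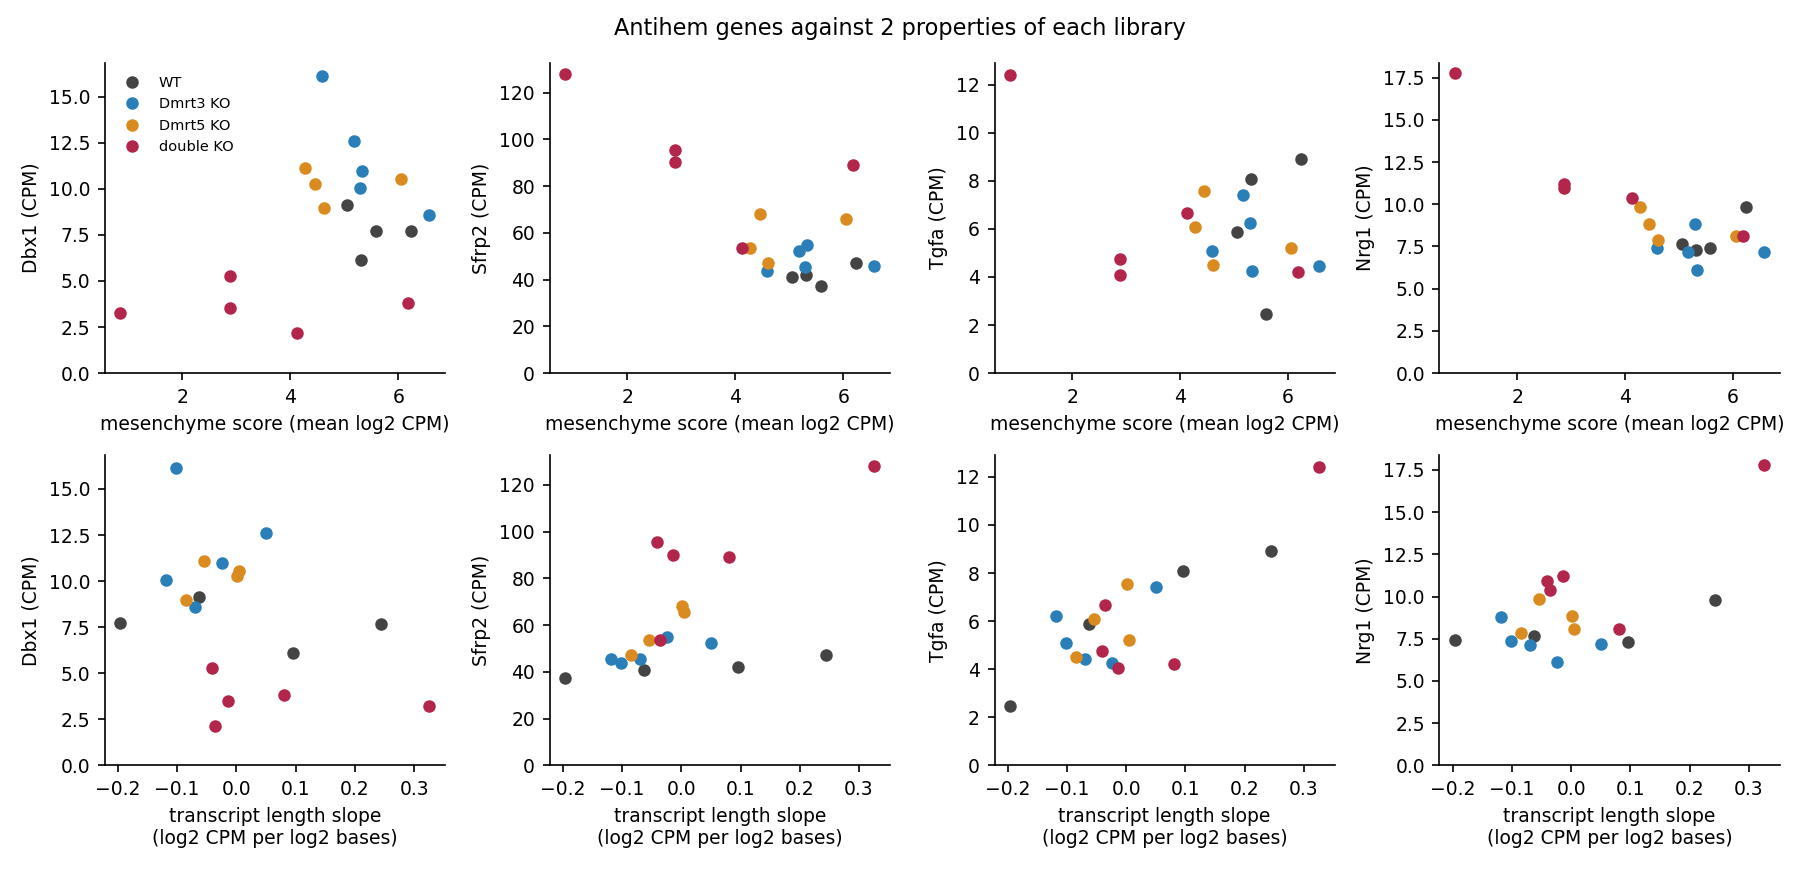
Each point is 1 of 18 libraries, coloured by genotype, with the level in CPM of Dbx1, Sfrp2, Tgfa and Nrg1 (columns) against the mesenchyme score (upper row, mean log2 CPM of 12 genes) and the transcript length slope (lower row, log2 CPM per log2 bases). The double KO library with the score of 0.85 and the slope of 0.326 holds the highest Sfrp2, Tgfa and Nrg1 of all 18 libraries, and the double KO libraries have the 5 lowest Dbx1 levels.

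Markers of neighbouring tissues also differed between the genotypes in which the members differed. The 10 subpallial and GABAergic markers summed to between 787 and 1100 CPM in wild type and between 1683 and 3084 CPM in the double knockout, and 10 of 10 rose in the double knockout against wild type. The 11 cortical hem markers summed to between 255.5 and 359 CPM in wild type and between 55.0 and 191.6 CPM in the double knockout, and 8 of 11 fell. The 12 mesenchyme markers summed to between 799 and 2522 CPM in wild type (median 1200) and between 58.9 and 2178 CPM in the double knockout (median 170). Of these markers 0 of 12 were called in edgeR (3 passed 0.05 unadjusted, and 1 was called by DESeq2). The 10 neuronal markers summed to between 3426 and 4118 CPM in wild type (median 3620) and between 3128 and 7276 CPM in the double knockout (median 5960), where 1 of 10, Nefl, rose. Replicate 4 of the double knockout alone held the 2178 CPM of mesenchyme and the 3128 CPM of neuronal markers. The same library held the 191.6 CPM of hem and the 1683 CPM of subpallial markers. In the rest of that genotype the hem sum was at most 71.0 CPM and the subpallial sum at least 2568 CPM. The other double knockout libraries lay below all wild-type libraries in the mesenchyme sum and above them all in the neuronal sum. Whether a different share of subpallial tissue in the dissections moved the antihem genes was not tested.

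The receptors and ligands of the ErbB pathway showed few calls, and in the single knockouts against wild type edgeR called 0 genes of the ErbB, Wnt antagonist and Fgf lists described here. Among those lists an unadjusted p below 0.05 was reached in the Dmrt5 knockout by 0 ErbB ligands, 2 ErbB receptors or feedback genes, 3 Wnt antagonists and 4 Fgf genes, and DESeq2 called 2 genes, both in the Fgf list. In the Dmrt3 knockout it was reached by 1 ErbB receptor or feedback gene and 1 Fgf gene, and DESeq2 called 0. Of 11 ErbB ligands, 8 were tested (Areg, Btc and Ereg were not), and in the double knockout against wild type 0 rose and 0 fell in edgeR (2 passed 0.05 unadjusted, 0 were called by DESeq2), with a median log2 difference of 0.34 beside 0.006 over all genes. Of the 15 receptors, sheddases and feedback inhibitors, 0 rose and 0 fell in the same comparison in edgeR (3 passed 0.05 unadjusted, 1 was called by DESeq2), with a median of 0.00. Egfr, the Tgfa receptor, stood at 7.51 ± 3.27 CPM (SD, n = 4) in wild type and 3.33 ± 4.40 (n = 5) in the double knockout, a log2 difference of -1.17 (SE 0.66, adjusted p = 0.395 in edgeR). Replicate 4 of the double knockout alone held 11.1 CPM of Egfr, and without it the difference was -2.44 with an adjusted p of 0.00521.

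Erbb4, the neuregulin receptor, stood at 9.70 ± 3.74 CPM (SD, n = 4) in wild type and 23.3 ± 11.5 (n = 5) in the double knockout (log2 difference 1.26, SE 0.39, adjusted p = 0.0701 in edgeR, and 0.0162 in DESeq2), and it was called in 2 of 9 edgeR fits that left out a library. It was called at the threshold against the Dmrt3 knockout (1.35, adjusted p = 0.0494), a call kept in 2 of 10 fits that left out a library. The log2 difference from wild type was -0.24 for Erbb2 (adjusted p = 0.745 in edgeR) and -0.74 for Erbb3 (adjusted p = 0.412).

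Among secreted Wnt antagonists Sfrp2 did not share its direction with the most abundant family member. The list of 16 also held Nog, which binds Bmps, and the Dkk receptors Kremen1 and Kremen2, and 14 of its genes were tested (Cer1 and Dkk4 were not). In the double knockout against wild type 2 rose and 2 fell, with a median log2 difference of -0.37. Sfrp1, a close relative of Sfrp2 expressed through the cortical progenitor zone, fell from 567.9 ± 37.8 CPM (SD, n = 4) to 310.8 ± 57.7 (n = 5), a log2 difference of -0.87 (SE 0.14, adjusted p = 0.000702 in edgeR). Sfrp4 rose from 1.83 to 3.23 CPM (0.82, edgeR adjusted p = 0.00321, and 0.0671 when only these genotypes were fitted). Wif1, a secreted Wnt inhibitor, fell from 7.69 to 0.92 CPM (-3.04, adjusted p = 0.0309), where replicate 4 of the double knockout held 4.13 CPM, and the call was kept in 3 of 9 fits that left out a library and lost when only these genotypes were fitted (0.243). In the Dmrt5 knockout Wif1 stood at 0.94 ± 0.57 CPM (n = 4) without passing the test.

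Of the Fgf7 subfamily and the Fgf receptors, 8 of 11 genes were tested (Fgf10, Fgf22 and Fgfbp1 were not), and 1 rose and 1 fell in the double knockout against wild type, with a median log2 difference of 0.11. Fgf3, a member of the same ligand subfamily, rose from 4.97 ± 1.36 CPM (SD, n = 4) to 11.5 ± 3.55 (n = 5), a log2 difference of 1.22 (SE 0.25, adjusted p = 0.00534 in edgeR, and 0.0691 when only these genotypes were fitted). Fgfr3 fell from 215.0 to 78.1 CPM (-1.46, SE 0.38, adjusted p = 0.0271), a call kept in 4 of 9 fits that left out a library and lost when only these genotypes were fitted (0.134). Fgfr2, whose IIIb form is the Fgf7 receptor, had a log2 difference of -0.20 (SE 0.16) and was not called, and counts per gene do not separate its forms.

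**Figure D4:**
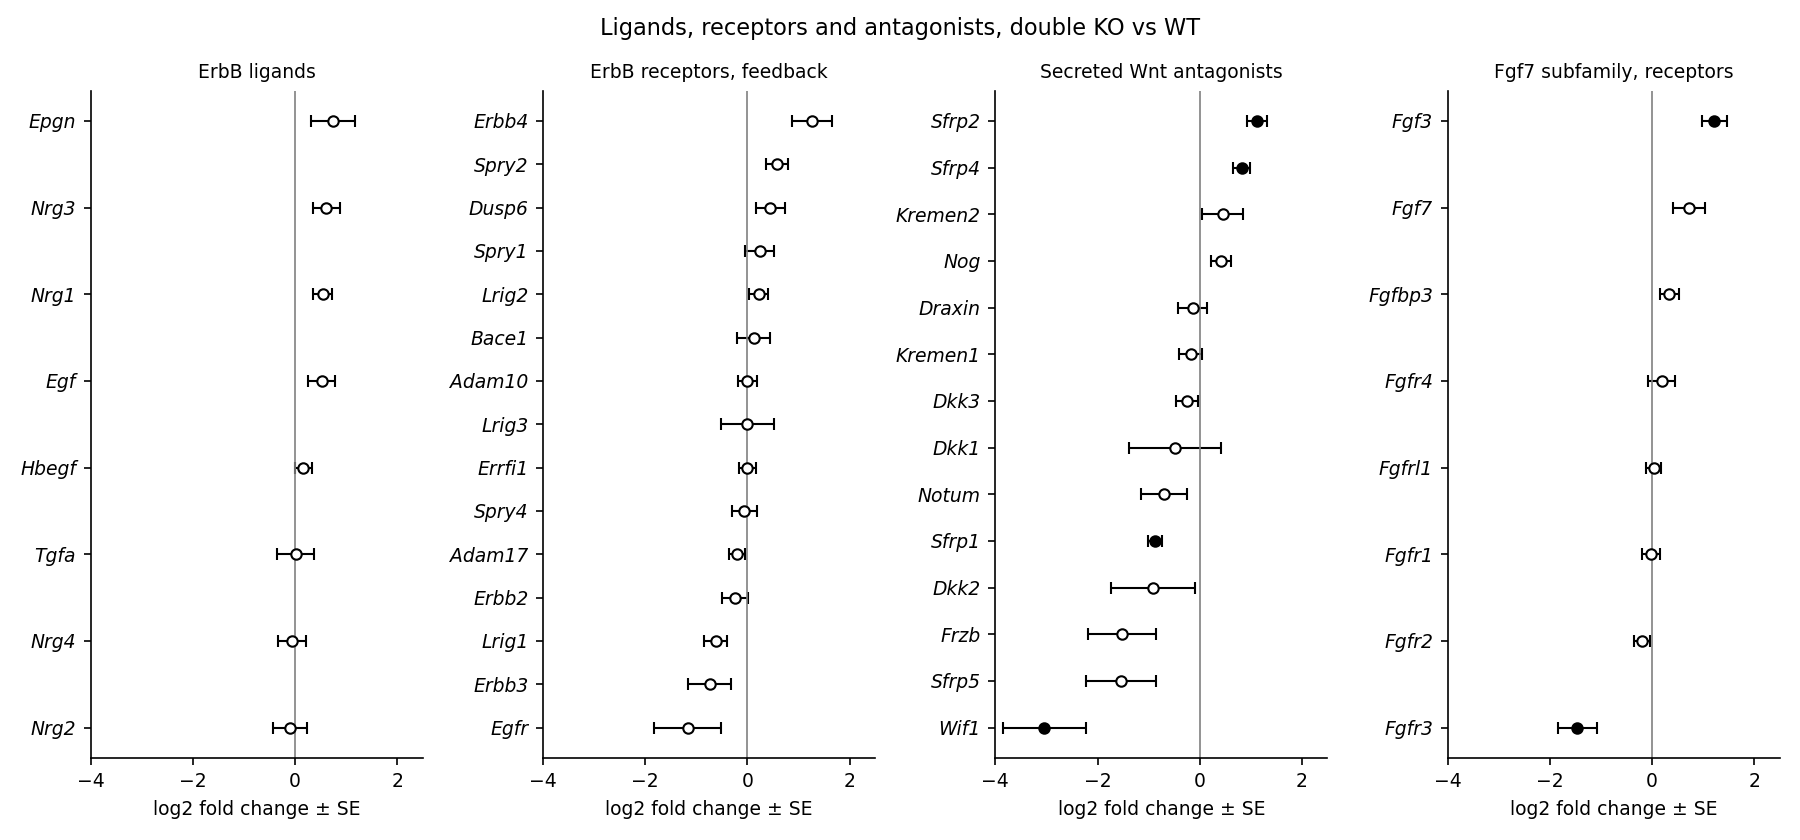
Log2 differences with their SE between the double KO and wild type for the tested genes of 4 lists (ErbB ligands, ErbB receptors and feedback genes, secreted Wnt antagonists, Fgf7 subfamily and receptors), sorted within each list, with filled points where the edgeR adjusted p was under 0.05. In the 2 ErbB panels every point is open, and in the Wnt antagonist panel Sfrp2 at 1.12 and Sfrp1 at -0.87 are filled on opposite sides of 0.

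Transcription factors of the pallium, the subpallium and the border between them changed widely. Of 23 such genes, 9 rose and 8 fell in the double knockout against wild type, and 3 rose and 3 fell in the Dmrt5 knockout. In the Dmrt3 knockout 0 were called in edgeR (2 passed 0.05 unadjusted). Over all genes, edgeR called 6.23% in the double, 1.03% in the Dmrt5 and 0.0123% in the Dmrt3 knockout. DESeq2 called 17 in the double, 12 in the Dmrt5 and 0 in the Dmrt3 knockout. Pax6, which is needed for antihem formation, rose from 176.3 ± 20.8 CPM (SD, n = 4) to 318.8 ± 78.8 (n = 5) in the double knockout (log2 difference 0.85, SE 0.15, adjusted p = 0.00208 in edgeR, and 0.0506 with the mesenchyme score as a covariate). Gsx2, which specifies the adjacent subpallial progenitors, rose from 31.7 ± 11.9 to 83.3 ± 15.98 CPM (1.4, SE 0.22, adjusted p = 0.000716). The lowest adjusted p-values of the list belonged to pallial regulators that fell, Fezf2 (-2.01, adjusted p = 3.16e-08), Emx1 (-4.17, 3.16e-08), Lhx2 (-1.56, 2.03e-07) and the proneural factor Neurog2 (-2.01, 5.18e-07).

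Against the Dmrt5 knockout 0 of these 23 regulators rose and 6 fell in the double knockout, where 0.333% of all genes were called. Those that fell were led by Emx1 (-3.11, edgeR adjusted p = 3.52e-06) and Neurog2 (-1.79, 8.01e-06). The interaction, called lower for Dbx1, was called lower for 4 of the 23 as well, where 0.142% of all genes were called. These were Neurog2 (-2.05, adjusted p = 0.000328), Emx1 (-3.26, 0.000328), Eomes (-1.87, 0.00107) and Neurog1 (-1.77, 0.0265, called in 8 of 18 fits that left out a library).

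The genes whose levels followed each member most closely across libraries were found by Pearson's r of log2 CPM over the 18 libraries, among 12798 genes (12799 for Fgf7) whose log2 CPM averaged 1 or more. The libraries share genotype, so these values describe the 4 groups as well as the spread within them. Dbx1 was most like Neurog1, a proneural factor (r = 0.904), Nrn1 (0.869) and Tifa (0.866). Sfrp2 was most like Rian (0.914), a non-coding RNA, Sall3 (0.907) and Ntn1 (0.901). Fgf7 was most like Tmeff1 (0.891), Parp8 (0.879) and Zfp28 (0.873). Tgfa was most like Sptan1 (0.919), Cacna1d (0.91) and Cttnbp2 (0.909), Nrg1 most like Lsamp (0.873), Accs (0.871) and Cacna1a (0.867), and Nrg3 most like Ahi1 (0.966), Zbtb20 (0.965) and Scamp1 (0.965). Fgf7 averaged below 1 and was not among the genes searched, so it could not be found near another member. Of the other members, none was among the 3 genes nearest to any member.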

How the data were processed

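RNA of dissected E12.5 mouse cortex was measured in 18 libraries of 4 genotypes prepared with a TruSeq RNA kit, per the labels' protocols. The deposited values are raw counts per Ensembl gene. The submitters' processing notes name the build mm10, featureCounts 1.4.6-p1, DESeq2 1.8.2, STAR 2.3.0e, FastQC 0.10.1, CASAVA 1.8.2 and bcl2fastq. The sources used here do not give the annotation release or the strand setting. Of 38355 genes, 36602 were matched by identifier to GENCODE M21, and the rest held 0.3965% of counts. The summary entries of the files were all 0.

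Counts were tested with edgeR 4.0.16 in R 4.3.3 (TMM, filterByExpr, quasi-likelihood fit of all 18 libraries with 1 mean per genotype, Benjamini-Hochberg adjustment over 16236 genes, called under 0.05). The SE is the log2 difference divided by the square root of F. Levels are CPM of TMM-scaled libraries. DESeq2 1.42.0, other size factors, no filter, only the genotypes compared, a replicate block, 2 covariates and leaving out each library were alternatives. The fits were tested on simulated counts with known changes, each against wild type. Of 2-fold changes, 52% were called for the Dmrt3 knockout, 44% for the Dmrt5 knockout and 58% for the double knockout. Of 1.5-fold changes, 8%, 6% and 8% were called in that order. No 2 libraries of a genotype agreed within sampling noise.

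Members are named in every comparison. From each gene list up to 4 called genes per comparison with the lowest adjusted p are named, besides Egfr, Erbb2, Erbb3, Erbb4, Fgfr2, Sfrp1, Pax6 and Gsx2. Wif1 in the Dmrt5 knockout and the markers Nefl, Lhx5 and Trp73 were named after their values were seen. Members and lists were chosen with earlier results of these data known.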

Additional observations from a re-analysis of the deposited data

Results flagged for a closer look

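Among 24 groups of libraries, 1 for each antihem gene and genotype, 1 library stood far from the others of its group. Nrg1 stood at 9.81 CPM in replicate 4 of wild type, beside 7.29 to 7.66 CPM in the other 3 wild-type libraries. Chance gives such a gap in about 1 in 20 groups. That library also had the highest mesenchyme score of wild type, 6.23, and the highest transcript length slope of wild type, 0.244, and their part in its Nrg1 level was not tested.

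The effect of losing 1 Dmrt gene differed with the state of the other for 5 genes named here, by the edgeR interaction test. The log2 interaction was -2.11 for Dbx1 (adjusted p = 0.00554), -3.26 for Emx1 (0.000328), -1.87 for Eomes (0.00107), -1.77 for Neurog1 (0.0265) and -2.05 for Neurog2 (0.000328). The call for Neurog1 was kept in only 8 of 18 fits that left out a library. For Dbx1, 5 of 5 double knockout libraries lay below every library of the other genotypes.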

How the results depend on the processing

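Counts of antihem genes called kept within 1.5 times under most settings, where 0 beside 0 also counted as kept. Single calls can be lost within that limit. The Nrg1 call against the Dmrt3 knockout was kept in only 1 of 10 fits that left out a library. With the transcript length slope as a covariate the count in the Dmrt5 knockout against wild type was 1 instead of 0. Fitted on the genotypes compared alone it was 1 instead of 2 in the double knockout against wild type and 0 instead of 1 against the Dmrt5 knockout, and with the mesenchyme score as a covariate it was 1 instead of 3 against the Dmrt3 knockout. Leaving out each library gave 0 to 0 members called in either single knockout against wild type, 2 to 3 in the double knockout against wild type, 2 to 4 against the Dmrt3 knockout, 1 to 2 against the Dmrt5 knockout (2 without replicate 1 of the double knockout) and 1 to 1 for the interaction.

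Over all genes, the calls in the Dmrt3 knockout against wild type numbered 2, with 54 in DESeq2 and 89 with the length slope, and 2 to 6 when a library was left out (6 without wild-type replicate 2, 4 without replicate 4). In the Dmrt5 knockout they numbered 167, with 438 in DESeq2, 89 on the genotypes compared alone, 380 with a replicate block and 544 with the length slope, and 54 to 225 when a library was left out (90, 105 and 83 without wild-type replicates 1, 3 and 4, and 78, 54, 100 and 72 without Dmrt5 replicates 1, 2, 4 and 5). In the double knockout against wild type they numbered 1012, with 368 on the genotypes compared alone, 391 with the mesenchyme score and 3170 with the length slope (1588 higher and 1582 lower, beside 393 and 619), and 727 to 2006 when a library was left out (2006 without double knockout replicate 4). Against the Dmrt3 knockout the 600 calls became 976, 358 and 268 in DESeq2, on the genotypes alone and with the mesenchyme score, and 396 to 1437 when a library was left out (396 without Dmrt3 replicate 1, 1437 without double knockout replicate 4). Against the Dmrt5 knockout the 54 calls became 112 in DESeq2, 21 on the genotypes alone and 121 with the length slope, and 34 to 79 when a library was left out (34 without Dmrt5 replicate 4). The interaction's 23 calls became 127 in DESeq2 and 15 to 33 when a library was left out (15 without Dmrt3 replicate 3 or Dmrt5 replicate 1 or 5). Causes other than fewer samples were not tested.

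Directions changed only among log2 differences that passed no test. With the length slope, Fgf7 was 0.12 in the Dmrt3 knockout and -0.11 in the interaction, Nrg3 0.0105 in the Dmrt3 knockout, and Tgfa 0.157 and 0.18 in the single knockouts, -0.11, -0.267 and -0.29 in the double knockout against wild type, Dmrt3 and Dmrt5 knockouts, and -0.447 in the interaction. With the mesenchyme score, Tgfa was -0.527, -0.259 and -0.24 in those 3 comparisons, Nrg1 -0.0138 in the Dmrt5 knockout and Erbb2 0.168 in the double knockout against wild type. With the replicate block Tgfa was -0.13 in the double knockout against wild type and Nrg1 -5.74e-05 in the Dmrt5 knockout, and of 18 libraries 4 correlated best with one of their own number. Of 24 same-numbered pairs across genotypes, 15 had deviations correlated over 0.1 (r from -0.357 to 0.703). Replicate 4 had the highest mesenchyme score of wild type (6.23), the Dmrt5 knockout (6.06) and the double knockout (6.19), but not of the Dmrt3 knockout. The labels tie the numbers to no litter or batch, so the main fit held no block. Whether same-numbered samples shared a batch cannot be told from these values. Leaving out a library gave Fgf7 in the Dmrt3 knockout -0.373 to 0.144, Nrg3 in the Dmrt5 knockout -0.0062 to 0.257, and Tgfa -0.381 to 0.0822 in the Dmrt5 knockout, -0.373 to 0.221 in the double knockout against wild type, -0.157 to 0.362 against the Dmrt3 knockout, -0.251 to 0.285 against the Dmrt5 knockout and -0.0352 to 0.607 in the interaction.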

Other observations

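Markers of Cajal-Retzius neurons, part of which descend from Dbx1-expressing progenitors, were read beside Dbx1 as a list of 6 genes. In the double knockout against wild type 1 rose, Lhx5, and 1 fell, Trp73, with a median log2 difference of 0.30 beside 0.006 over all genes. Trp73 was also lower in the Dmrt5 knockout against wild type and in the double knockout against each single knockout by the edgeR test. Dbx1 was not lower in the Dmrt5 knockout, at 10.2 CPM beside 7.67 CPM in wild type. Whether the Trp73 level is tied to Dbx1 was not tested. The 6 genes summed to between 165.8 and 235.2 CPM in wild type and between 148.2 and 268.8 CPM in the double knockout, so the summed level overlapped between the genotypes.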
